A study of Gallus gallus with 50 samples.

Results

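The jejunum of broiler chickens fed the lower level of lysolecithin was compared with the jejunum of unsupplemented birds. The 10 arrays of this comparison were chosen by their titles and are 10 of 50 in the series, 5 birds on lysolecithin low and 5 controls. All birds were Cobb 500 males sampled on day 10, and RNA from scraped mucosal cells was read on Affymetrix arrays for chicken, where 1 or more probe sets stand for a transcript. Lysolecithin low feed held 250 g/T of lysolecithin, given as 500 g/T of the product Lysoforte, and supplied 9.5 g/T of lysophosphatidylcholine (LPC). Lysolecithin high feed held 500 g/T of lysolecithin and supplied 19 g/T of LPC. LPC low feed held 9.5 g/T of LPC, added as purified LPC on a carrier, and LPC high feed held 19 g/T. Control feed had no supplement, and each of the 5 diets had 5 birds. The 125 chicks were placed in adjoining floor pens of 25. With 5 diets this leaves 1 pen for each feed, if every pen had a single feed. The sources used here do not state how feeds were assigned to pens. Pen and feed therefore cannot be told apart.

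Lysolecithin is the mixture of phospholipids left when a fatty acid chain is removed from lecithin, and LPC is a main component of it. Both are emulsifiers: they help fat disperse in the gut lumen, and LPC is itself taken up by enterocytes, which rebuild phosphatidylcholine from it for the coat of the lipoproteins they export. The jejunum is the stretch of small intestine where most fat is absorbed. Its epithelium also senses viral nucleic acid. Toll-like receptor 3 and the cytosolic helicases IFIH1 and DHX58 recognise double-stranded RNA. Interferon set off by the sensing of such RNA induces a large group of antiviral effector genes.

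The 10 arrays differed in tissue markers and in RNA, beyond the feed. A segment score, the mean of 8 jejunal minus that of 7 ileal marker genes, had a median of 2.78 in jejunal and -3.99 in ileal arrays of the series, halfway at -0.60. It was 2.52, 5.05, 5.00, 2.01 and 1.65 in the lysolecithin low birds and 0.19, -4.75, 4.92, 1.43 and 4.82 in the controls (exact two-sided permutation p = 0.365). Control replicate 2 therefore carried ileal rather than jejunal markers, against its label, and for some results counts are also given without it. The 5′ minus 3′ signal of 3 control transcripts (actin, GAPDH and EF1A), an index of RNA integrity and labelling, averaged -0.66 ± 0.16 in lysolecithin low birds and -0.97 ± 0.14 in controls (SD, n = 5 each; exact permutation p = 0.0159, where the smallest possible is 0.0079). In the ileum of the same birds it was -0.70 ± 0.14 in lysolecithin low birds and -0.80 ± 0.14 in controls (exact p = 0.349). With the index as a covariate no probe set passed the threshold used below. The 19 that passed without it kept their sign, with adjusted p of 0.0689 to 0.214 (limma). Both groups had 2, 2 and 1 arrays in batches 1, 2 and 3.

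**Figure D1:**
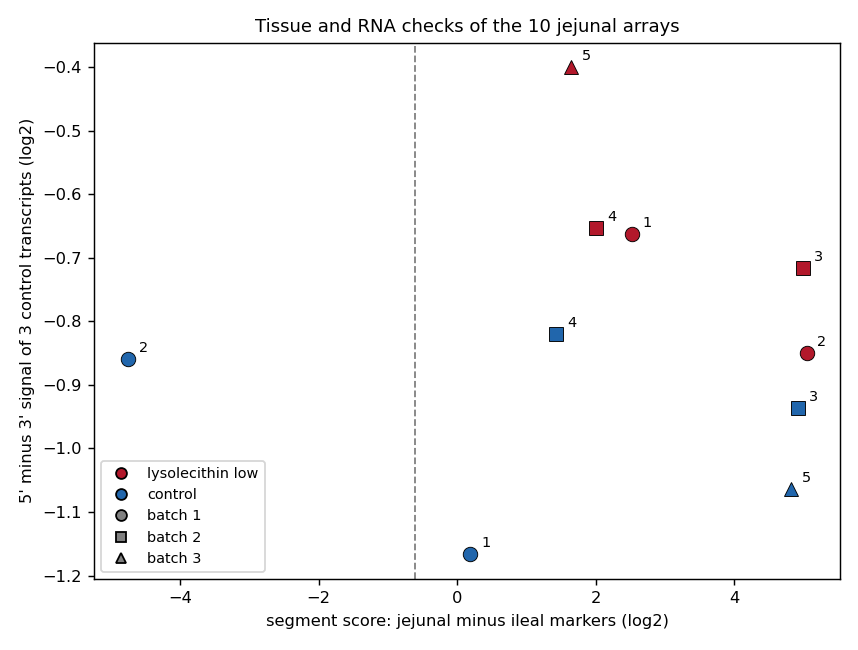
Segment score (x axis, log2) and 5′ minus 3′ index (y axis, log2) of the 5 lysolecithin low (red) and 5 control (blue) jejunal arrays, numbered by replicate, with batch by symbol and the halfway score of -0.60 as a dashed line. Control replicate 2 lies alone on the ileal side at -4.75, and the lysolecithin low arrays lie higher on the y axis on average, -0.66 against -0.97.

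At an adjusted p under 0.05, 19 of 38382 probe sets differed between lysolecithin low and control jejunum, 0.0495% of those tested (limma, diet and batch as terms, Benjamini-Hochberg adjustment). Only 2 of them rose (0.00521%) and 17 fell (0.0443%). The 2 that rose read TLR3 and ZC3HAV1, both of which detect viral RNA. The 17 that fell stand for 14 named genes, of regulators of small GTPases and phosphoinositides, the membrane skeleton, chromatin and the centrosome, and for 2 probe sets without a gene name. At an unadjusted p under 0.05 there were 3423 (8.92%), 1795 higher (4.68%) and 1628 lower probe sets (4.24%). Values are log2 signals, so that a difference of 1 is a 2-fold change, and since the arrays hold scraped tissue, fewer cells of a type and less RNA per cell cannot be told apart.

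TLR3, the endosomal receptor for double-stranded RNA, had log2 signals of 8.56, 8.39, 8.39, 8.69 and 9.36 in lysolecithin low birds and 6.97, 7.24, 7.32, 7.03 and 7.12 in controls. Every supplemented bird lay more than 1 unit above the highest control. The difference was 1.54 ± 0.23 (log2, SE; adjusted p = 0.00998), which is 2.91-fold, and within batches 1 to 3 it was 1.37, 1.37 and 2.24. The 2 other TLR3 probe sets were higher by 0.50 ± 0.15 and 0.45 ± 0.27 and did not pass the test (adjusted p = 0.244 and 0.684). With the 5′ minus 3′ index as a covariate the TLR3 difference was 1.40 (adjusted p = 0.105), and without control replicate 2 it was 1.63 (adjusted p = 0.0287).

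ZC3HAV1, the zinc-finger antiviral protein that binds viral RNA and directs its decay, gave 7.64, 7.24, 7.64, 7.80 and 8.03 in lysolecithin low birds and 5.95, 6.02, 6.13, 6.45 and 6.26 in controls. Here too the groups did not overlap. The difference was 1.51 ± 0.25 (adjusted p = 0.0179) and 1.46, 1.43 and 1.77 within the batches. Both other ZC3HAV1 probe sets also had all 5 supplemented birds above all controls, with differences of 1.29 ± 0.25 and 1.04 ± 0.22 that missed the threshold (adjusted p = 0.0728 and 0.0929). With the index as a covariate the ZC3HAV1 difference was 1.35 (adjusted p = 0.158).

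Genes that act on small GTPases were among those that fell. ARFGEF1, the exchange factor that activates Arf proteins at the Golgi, gave 6.27, 5.46, 7.73, 8.01 and 8.81 in lysolecithin low birds and 7.54, 7.41, 8.82, 9.09 and 9.05 in controls. The groups overlapped, and the batches themselves spread over more than 1 unit. The difference of -1.13 ± 0.16 (adjusted p = 0.00998) was -1.61, -1.09 and -0.24 within batches 1 to 3. With a random batch effect the adjusted p of ARFGEF1 was 0.709 (limma), so this call depends on how batch is modelled. ARAP2, which switches Arf proteins off in response to phosphoinositides, gave 6.09, 5.77, 6.71, 6.01 and 7.23 in lysolecithin low birds and 6.90, 6.93, 7.67, 7.53 and 7.75 in controls. All supplemented birds but replicate 5 lay below all controls, and ARAP2 fell by 0.99 ± 0.14 (adjusted p = 0.00998). The only other ARAP2 probe set differed by -0.34 (adjusted p = 0.437). RALGAPA2, a subunit of the complex that inactivates Ral GTPases, fell by 1.06 ± 0.16 (adjusted p = 0.0140). It read 5.70, 5.69, 6.15, 5.69 and 6.70 in lysolecithin low birds and 6.69, 6.76, 7.40, 6.80 and 7.56 in controls. Its only other probe set had a difference of 0.10 and did not pass.

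The wider set of small GTPase regulators of membrane traffic had unadjusted counts near the share of all genes. Of its 41 measured members 2 passed the adjusted threshold, ARFGEF1 and RALGAPA2, and both fell (of all genes, read by 1 probe set each, 0.0384% passed). The list was chosen with earlier results of these data known, so these 2 members are no separate support for the list. At an unadjusted p 3 members were higher (7.32%, beside 5.97% of all genes), EXOC5 (0.82 ± 0.22), GBF1 (0.54 ± 0.19) and RGL1 (0.42 ± 0.16). The 2 lower members (4.88%, beside 4.04% of all genes) were ARFGEF1 and RALGAPA2. The median difference of the list was 0.08, beside 0.008 over all 13009 genes with 1 symbol.

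PIK3CB, a catalytic subunit of phosphoinositide 3-kinase, gave 5.90, 6.06, 6.97, 5.93 and 7.32 in lysolecithin low birds and 7.23, 6.89, 8.02, 7.74 and 8.40 in controls. It fell by 1.22 ± 0.18 (adjusted p = 0.00998), the largest fall among the probe sets past the threshold, with -1.08, -1.43 and -1.08 within batches 1 to 3. Of the supplemented birds 3 lay below all controls. The 2 other PIK3CB probe sets had differences of -0.50 and -0.19 (smallest adjusted p = 0.204). Among 38 phosphoinositide kinases and phosphatases, in which PIK3CB was read by its brightest probe set, none passed and the median was -0.02. At an unadjusted p 7 members were higher and 3 lower, where 5.97% of all genes were higher and 4.04% lower. PDPK1, the kinase that acts on AKT, was lower (-0.48 ± 0.14) and AKT1 higher (0.38 ± 0.16).

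SPTBN5, a beta spectrin of the membrane skeleton, gave 7.05, 6.88, 7.50, 7.60 and 9.05 in lysolecithin low birds and 8.46, 7.99, 9.20, 9.12 and 9.21 in controls. It fell by 1.18 ± 0.17 (adjusted p = 0.00998), with -1.26, -1.61 and -0.16 within the batches, so that the batch 3 pair hardly differed. All 8 other SPTBN5 probe sets were lower too, by 0.12 to 1.33, and none passed (smallest adjusted p = 0.0788). Of 28 spectrins, ankyrins and membrane-skeleton genes, with SPTBN5 read by its brightest probe set, none passed and the median was -0.07. At an unadjusted p 1 was higher and 1 lower, where 5.97% of all genes were higher and 4.04% lower. SPTAN1, the alpha spectrin, had a difference of 0.07 ± 0.24.

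VPS13C, a bridge protein that carries lipids between membranes, fell by 0.86 ± 0.14 (adjusted p = 0.0144). The 7 other VPS13C probe sets differed by -0.32 to -0.004 (smallest adjusted p = 0.611). MYCBP2, an E3 ubiquitin ligase, fell by 0.60 ± 0.10 (adjusted p = 0.0179). PCNT, the centrosome scaffold pericentrin, fell by 0.94 ± 0.16 (adjusted p = 0.0256). The PCNT signals were low on this array, 3.56 to 4.81 in lysolecithin low birds and 4.41 to 5.56 in controls, and the 4 other PCNT probe sets had differences of -0.21 to 0.06. PRPF4B, a kinase of the splicing machinery, fell by 1.00 ± 0.16 (adjusted p = 0.0144).

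Of the nuclear regulators, ZNF236 passed in 2 of its 9 probe sets. The one with the larger difference gave 5.12, 4.73, 4.92, 5.11 and 5.47 in lysolecithin low birds and 6.04, 6.09, 6.21, 5.83 and 6.38 in controls, with no overlap. These ZNF236 probe sets fell by 1.04 ± 0.16 (adjusted p = 0.0109) and by 0.69 ± 0.11 (adjusted p = 0.0179), and the 7 others of this zinc-finger gene had negative differences of 0.09 to 0.50 in size. TSHZ2, a teashirt zinc-finger protein, gave 3.74, 4.10, 3.89, 3.55 and 3.66 in lysolecithin low birds and 5.00, 4.74, 4.73, 4.83 and 4.81 in controls. The groups lay apart, and TSHZ2 fell by 1.03 ± 0.18 (adjusted p = 0.0256), with -0.95, -1.06 and -1.15 within the batches. Its signals were low, those of lysolecithin low birds below the array medians of 4.57 to 4.70. The 4 other TSHZ2 probe sets differed by -0.36 to -0.01 (smallest adjusted p = 0.520). KDM4C, a histone demethylase, fell by 0.91 ± 0.14 (adjusted p = 0.0144) with no overlap between the groups. Its only other probe set differed by -0.16 (adjusted p = 0.827). RSF1, a subunit of a chromatin remodeller, fell by 0.61 ± 0.10 (adjusted p = 0.0256), and ZNF839, another zinc-finger gene, by 0.72 ± 0.13 (adjusted p = 0.0347). Both other ZNF839 probe sets had differences near 0 (0.03 and 0.06), and the 2 other RSF1 probe sets differed by -0.34 and 0.02.

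**Figure D2:**
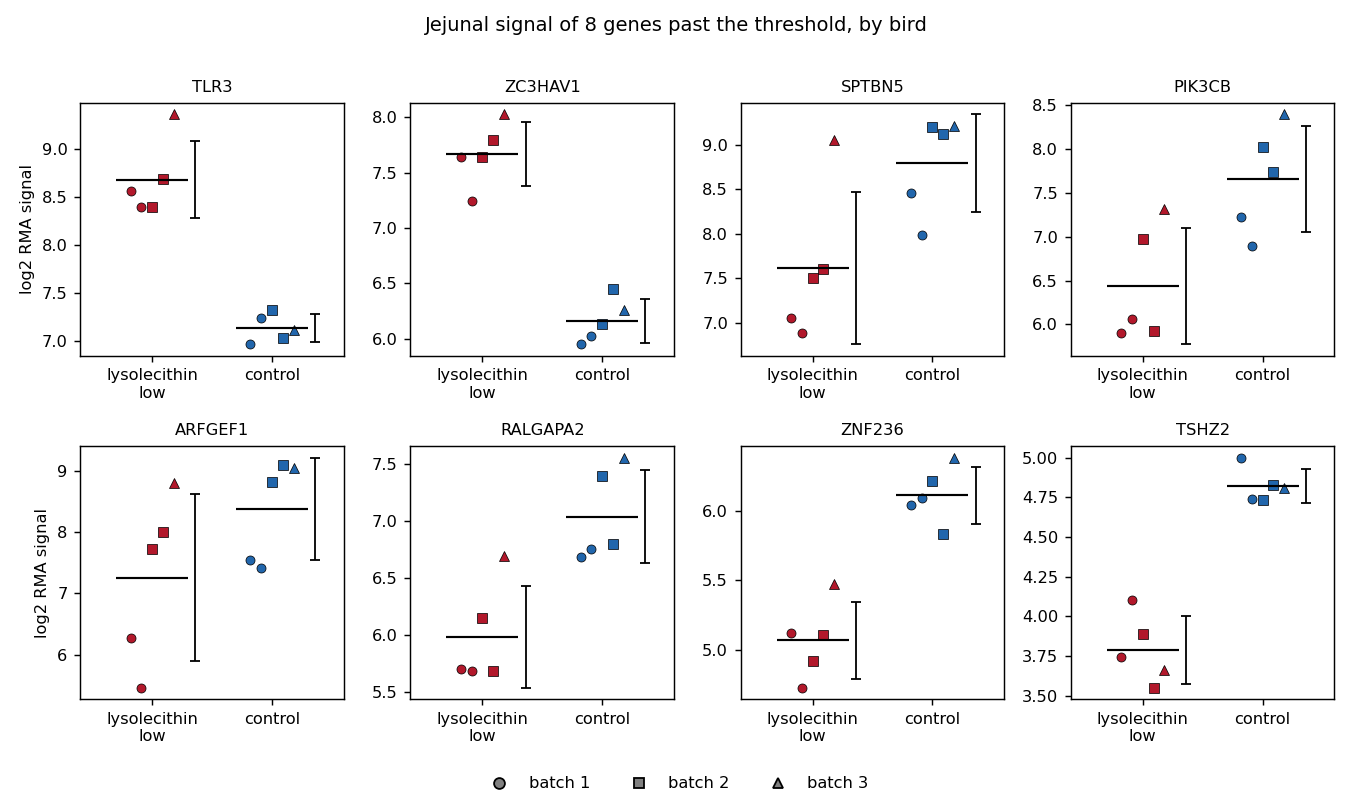
Log2 RMA signal (y axis, its own range in each panel) of 8 genes past the threshold in each lysolecithin low (red) and control (blue) bird; symbols give the batch, lines the mean and bars ± 1 SD (n = 5). TLR3, ZC3HAV1, ZNF236 and TSHZ2 show no overlap, while ARFGEF1 spreads by batch, 5.46 to 8.81 with lysolecithin low and 7.41 to 9.09 in controls.

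In all, 8 of the 19 probe sets had every supplemented bird beyond every control, where 0.998% of all probe sets lay wholly above and 0.612% wholly below. All 19 kept their sign in each of the 3 batches. They were picked by their test statistic on these same arrays, so neither property adds separate support. The mean signal of 4 was below the median of the array, and 9 carry an array suffix for probes shared with other transcripts or transcript forms. The 14 genes that fell had 47 other probe sets, of which 42 were negative, 14 were lower at an unadjusted p, none was higher at it, and none passed. Of all 38382 probe sets 19146 were positive, and at an unadjusted p 4.24% were lower and 4.68% higher. Probe sets of 1 gene are not independent, and SPTBN5 alone had 8 of the 47. Of these 47, 22 had a higher mean signal than the called probe set of their gene. With each gene read by its probe set of highest jejunal mean, 5 of 13009 genes passed (0.0384%), beside 16 called by any probe set. Most of these calls thus rest on a probe set that is not the brightest of its gene.

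The threshold fell within a run of like values. Just short of it were MLLT1 (-0.70 ± 0.13), AKAP9 (-1.05 ± 0.20) and ARHGEF12 (-0.82 ± 0.16), each with an adjusted p of 0.0527. AKAP9, a centrosomal and Golgi scaffold, read 6.07, 6.34, 6.00, 6.02 and 7.08 in lysolecithin low birds, all below the controls at 7.24, 7.23, 7.49, 7.36 and 7.42. On the higher side came PARP12 (1.06 ± 0.22; adjusted p = 0.0896) and TRIM25 (1.10 ± 0.23; adjusted p = 0.0999), both interferon-induced and active against RNA viruses. The other PARP12 probe sets differed by 1.09 and -0.004, and the other TRIM25 ones by 1.01, 0.47 and -0.08. IAPP, the gut and islet peptide amylin, was higher by 0.95 ± 0.19 (adjusted p = 0.0846), ELOVL1, an elongase of very long fatty acids, by 0.91 ± 0.20 (adjusted p = 0.108), and RTCB, the tRNA ligase, by 1.02 ± 0.22 (adjusted p = 0.108). LRP3 (0.48 ± 0.10), MKLN1 (0.51 ± 0.11) and TOR1A (0.77 ± 0.16) were also higher, with adjusted p of 0.0907 to 0.0985. All 8 of these genes on the higher side had 5 of 5 supplemented birds above all controls, where 0.998% of all probe sets did. These genes were picked by their test statistic, so the lack of overlap adds no separate support.

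Interferon-induced antiviral effectors were higher as a group, although none of the 39 measured members passed the adjusted threshold. Of these, 36 had a positive difference (52.1% of all genes did) and 24 were higher at an unadjusted p (5.97% of all genes were), none was lower, and the median was 0.75. In 17 members, or 43.6%, all 5 supplemented birds lay above all controls, which held for 1.39% of genes. The average signal of the list was 9.63, 9.28, 9.35, 9.57 and 9.73 in lysolecithin low birds and 9.10, 8.36, 8.72, 8.84 and 8.44 in controls, so every supplemented bird was above every control. Within batches 1 to 3 this average differed by 0.72, 0.68 and 1.29. Without control replicate 2 the median was 0.64 with 24 members higher at an unadjusted p, and with the 5′ minus 3′ index as a covariate it was 0.76 with 22.

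RSAD2, or viperin, which makes a chain-terminating nucleotide against viral polymerases, differed most. It read 8.98, 8.49, 8.90, 9.43 and 10.66 in lysolecithin low birds and 7.63, 4.63, 6.25, 6.31 and 5.45 in controls, a difference of 3.24 ± 0.78 (adjusted p = 0.142). The controls alone spanned 3 units. IFIT5, which binds viral RNA ends, gave 10.97, 10.56, 10.32, 10.87 and 11.76 in lysolecithin low birds and 9.77, 7.25, 9.06, 9.39 and 8.33 in controls (2.14 ± 0.51; adjusted p = 0.139). OASL, the oligoadenylate synthetase-like protein of birds, gave 11.40, 10.94, 11.11, 11.53 and 11.71 in lysolecithin low birds and 10.20, 9.32, 9.91, 9.75 and 9.11 in controls (1.68 ± 0.39; adjusted p = 0.135). Neither gene had an overlap between the groups. MX1, a dynamin-like antiviral GTPase, was higher by 1.31 ± 0.46, with supplemented replicate 3 at 10.05 inside the control range of 9.14 to 10.60.

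SAMD9L, an antiviral brake on translation, was higher by 1.99 ± 0.50 and CMPK2, a mitochondrial nucleotide kinase, by 1.68 ± 0.38. LY6E (1.40 ± 0.45), EPSTI1 (1.32 ± 0.38), HELZ2 (1.26 ± 0.41) and DDX60 (1.02 ± 0.30) followed. IFI6, a small mitochondrial membrane protein, had the lowest adjusted p of the list (0.78 ± 0.17; adjusted p = 0.111). The antigen-presentation genes of the list lay near 0, B2M at -0.02 ± 0.05, TAP1 at -0.06 ± 0.28 and TAP2 at 0.03 ± 0.18. IRF1 (0.07 ± 0.22) and GBP1 (-0.04 ± 0.06) did so as well. IRF7, which drives interferon transcription in birds, was 10.81, 10.51, 10.06, 10.39 and 10.88 in lysolecithin low birds and 10.30, 9.31, 9.94, 9.92 and 9.93 in controls (0.65 ± 0.33; adjusted p = 0.590).

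Of 22 genes of double-stranded RNA sensing, TLR3 alone passed. At an unadjusted p 8 were higher and none lower (5.97% and 4.04% of all genes), and the median was 0.11. IFIH1, the cytosolic sensor also known as MDA5, was higher by 1.58 ± 0.40 and read 10.15, 9.53, 9.23, 10.39 and 10.80 in lysolecithin low birds and 9.07, 7.95, 8.32, 8.48 and 8.40 in controls. DHX58, or LGP2, was higher by 1.43 ± 0.41, at 8.46, 8.09, 8.62, 8.40 and 8.38 in lysolecithin low birds and 7.18, 6.91, 7.36, 6.31 and 7.06 in controls. EIF2AK2, the RNA-activated kinase PKR, was higher by 1.25 ± 0.32 and ADAR, which edits double-stranded RNA, by 0.56 ± 0.16. In IFIH1, DHX58 and EIF2AK2 all 5 supplemented birds lay above all controls, and none of the 3 passed (adjusted p = 0.160, 0.221 and 0.160). TMEM173, the adaptor STING, was higher by 0.95 and TICAM1, the adaptor of TLR3, by 0.32, both at an unadjusted p only. The adaptor MAVS (-0.16 ± 0.17), the kinase TBK1 (-0.13 ± 0.10) and the ubiquitin ligases TRAF3 (-0.71 ± 0.40) and TRAF6 (-0.01 ± 0.12) had no unadjusted p under 0.05.

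TLR3 was the single member of 8 measured Toll-like receptors that passed. The others, among them TLR4 (0.15 ± 0.15), TLR5 (-0.12 ± 0.10), TLR7 (-0.00 ± 0.23), TLR15 (-0.18 ± 0.12) and TLR21 (-0.13 ± 0.22), differed by at most 0.18 in size. Of 12 interferons and interferon receptors none passed and the median was -0.02. IFNGR1, a chain of the interferon gamma receptor, was lower by 0.63 ± 0.15, with a signal of 3.16 to 3.89 in lysolecithin low birds and 3.73 to 4.35 in controls, and IFNG itself differed by -0.04 ± 0.12.

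**Figure D3:**
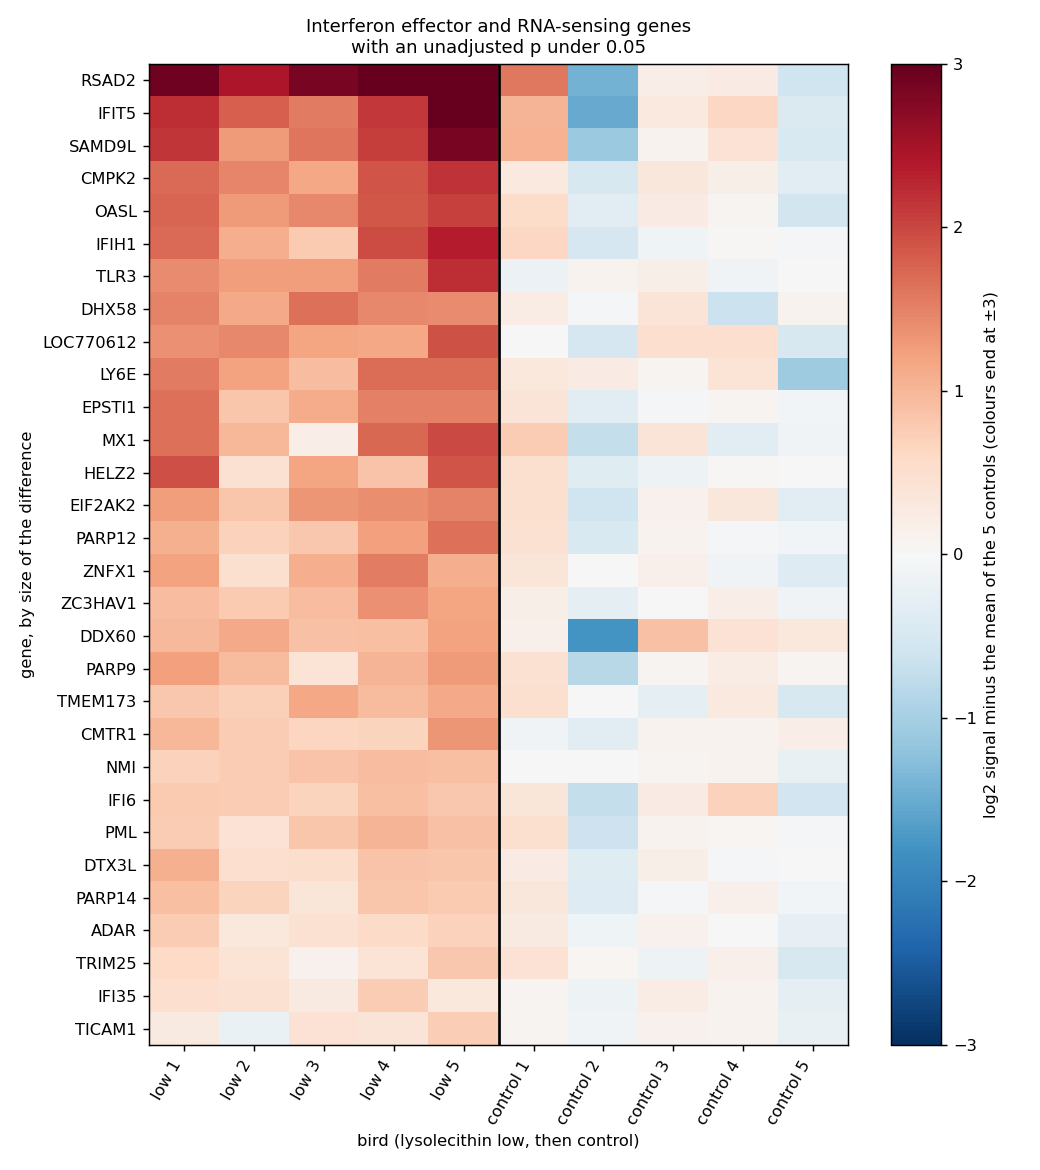
Log2 signal minus the mean of the 5 controls, by colour, for the 30 interferon effector and double-stranded RNA sensing genes with an unadjusted p under 0.05 (rows, by size of difference) in each lysolecithin low and control jejunum (columns). RSAD2 heads the rows at 3.24, supplemented bird 5 is the highest in most rows, and control 2 lies below the other controls in most rows.

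Ribosomal protein genes lay lower throughout, none of them past the adjusted threshold. All 64 cytosolic ribosomal proteins had a negative difference, with values of -0.58 to -0.10 and a median of -0.37, and 40 were lower at an unadjusted p (4.04% of all genes were). The average signal of the list was 10.95 ± 0.17 in lysolecithin low birds and 11.31 ± 0.23 in controls (SD, n = 5 each), and 4 of 5 supplemented birds were below all controls. RPS7 was lower by 0.53 and RPS15A by 0.58. Without control replicate 2 the median was -0.29 and 17 were lower at an unadjusted p. With the 5′ minus 3′ index as a covariate, the median was -0.28 and 7 were. Mitochondrial ribosomal proteins, 66 in number, had a median of 0.02.

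Of 36 translation factors none passed, 2 were higher and 6 lower at an unadjusted p (5.97% and 4.04% of all genes), and the median was -0.12. The lower ones included subunits of elongation factor 1, EEF1D (-0.62 ± 0.15) and EEF1G (-0.75 ± 0.21), and the poly(A)-binding protein PABPC1 (-0.47 ± 0.11). EEF1D read 10.80, 11.02, 11.14, 10.57 and 10.56 in lysolecithin low birds, below all controls at 11.45, 11.74, 11.22, 11.49 and 11.30. Of 41 crypt proliferation genes 35 were negative, 1 was higher and 8 were lower at an unadjusted p, and the median was -0.35. Of all genes 52.1% were positive, 5.97% higher and 4.04% lower. MKI67, the proliferation antigen, differed by -0.92 ± 0.41 and CENPF, a kinetochore protein, by -0.84 ± 0.29. Without control replicate 2 this median was -0.19 with 1 proliferation gene lower at an unadjusted p. With the 5′ minus 3′ index as a covariate it was -0.34 with 3 lower.

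Genes of fat absorption, the process the emulsifier acts on, were mostly higher, and none passed. Of 35 members 30 were positive (52.1% of all genes were) and 6 higher at an unadjusted p (5.97% of all genes), with a median of 0.24. Without control replicate 2, whose array carried ileal markers, the median was 0.09, with 4 higher and 1 lower. With the 5′ minus 3′ index as a covariate it was 0.40, with 15 higher and none lower. With the segment score as a covariate it was 0.12, with 5 higher and 1 lower. The list shares members with that score, among them CD36 and FABP6. LIPA, the lysosomal lipase, gave 11.20, 11.11, 11.01, 11.29 and 11.61 in lysolecithin low birds and 10.63, 10.15, 10.52, 10.41 and 10.27 in controls, with no overlap (0.85 ± 0.21; adjusted p = 0.154). MTTP, which loads lipid onto apolipoprotein B, read 11.51, 11.84, 11.86, 11.36 and 11.96 in lysolecithin low birds and 11.05, 10.28, 11.55, 11.26 and 11.40 in controls (0.60 ± 0.17; adjusted p = 0.223). Its lowest control was replicate 2, and supplemented replicates 1 and 4 lay within the control range. ABCG8, a sterol exporter, was higher by 0.79 ± 0.22, GPAT3, an enzyme of triglyceride synthesis, by 0.60 ± 0.21, and MOGAT2, the enterocyte monoacylglycerol acyltransferase, by 0.32 ± 0.14. The fatty acid carriers FABP1 (0.17 ± 0.15) and FABP2 (0.07 ± 0.21) and the lipoprotein scaffold APOB (0.08 ± 0.18) had no unadjusted p under 0.05.

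The 46 enzymes and receptors of phospholipids and lysophospholipids, the kinds of lipid in the supplement, had a median of 0.12 and none past the threshold. At an unadjusted p 6 were higher and 2 lower (5.97% and 4.04% of all genes). Without control replicate 2 the median was 0.04 with 4 higher, and with the 5′ minus 3′ index as a covariate it was 0.10 with 12 higher. ABHD3, a phospholipase, had the largest difference, 1.62 ± 0.51, at 8.73 ± 0.18 in lysolecithin low birds and 7.11 ± 1.81 in controls (SD, n = 5 each). LPAR5, a receptor for lysophosphatidic acid, had the lowest p. It gave 10.22, 9.49, 10.01, 10.72 and 10.45 in lysolecithin low birds and 9.21, 8.39, 9.39, 9.36 and 9.45 in controls, a difference of 1.02 ± 0.25 (adjusted p = 0.157) with no overlap. PLA2G12B, a secreted phospholipase-like protein involved in lipoprotein export, was higher by 0.93 ± 0.23, at 7.66 to 8.00 in lysolecithin low birds and 6.42 to 7.43 in controls. PCYT1A, the rate-setting enzyme of phosphatidylcholine synthesis, was higher by 0.56 ± 0.17. PLA2G15, the lysosomal phospholipase, was lower by 1.03 ± 0.33, at 6.38 to 6.92 in lysolecithin low birds and 7.05 to 9.23 in controls, where 9.23 was replicate 2. LPCAT3, which reacylates LPC in the enterocyte, differed by 0.17 ± 0.19 (11.05 to 11.58 in lysolecithin low birds and 10.56 to 11.38 in controls).

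**Figure D4:**
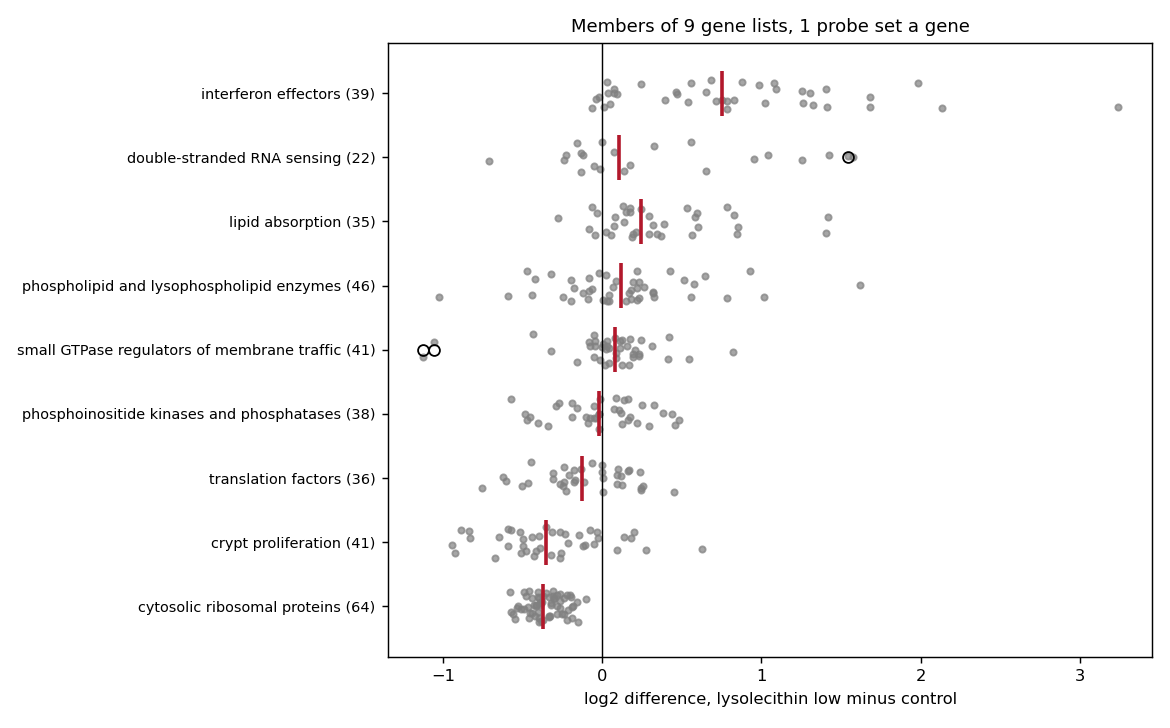
Difference of lysolecithin low minus control (x axis, log2) for every measured member (grey points, 1 probe set a gene) of 9 gene lists, numbers of members in brackets; red bars are medians and open circles the members past the adjusted threshold. The median is 0.75 for interferon effectors and -0.37 for cytosolic ribosomal proteins, whose 64 points all lie left of 0.

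Other groups of the mucosa held no member past the threshold. T cell genes (26) had a median of -0.08 and macrophage and granulocyte genes (21) one of -0.22. At an unadjusted p no T cell gene and 1 macrophage or granulocyte gene differed, where 5.97% of all genes were higher and 4.04% lower. Fibroblast and collagen genes (38) had a median of -0.13, COL1A1 at -1.02 ± 0.70 and COL3A1 at -0.99 ± 0.74. The 2 of them with an unadjusted p under 0.05 were higher, the collagen-modifying enzymes PLOD1 (0.74 ± 0.26) and PLOD2 (0.45 ± 0.18). They were 5.26% of the list, near the 5.97% of all genes that were higher. MUC2, the goblet cell mucin, had a difference of -1.06 ± 0.46 that turned by batch, -1.99, -1.23 and 1.14. IL8L2, a chicken interleukin 8, differed by -1.79 ± 0.56, at 5.35, 4.16, 5.05, 5.98 and 6.34 in lysolecithin low birds and 9.09, 8.26, 5.59, 6.77 and 6.12 in controls. Its difference was largest in batch 1 (-3.92, against -0.67 and 0.22 in batches 2 and 3). IL8L2 is also 1 of the 7 ileal markers of the segment score. Batch 1 held control replicate 2, whose array carried ileal markers and read 8.26. Control replicate 1, in the same batch and not against its label (segment score 0.19), read higher, at 9.09. The median of these ileal markers was -0.95, and 0.26 without control replicate 2. The part of segment in the IL8L2 difference was not tested. The 39 tight and adherens junction genes had a median of 0.05, and the brush-border digestive genes (25) one of 0.06.

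The 4 supplemented diets share the same 5 jejunal controls, so their differences are not independent and are given side by side. For TLR3 they were 1.66 with LPC low, 1.41 with LPC high, 1.54 with lysolecithin low and 0.53 with lysolecithin high. For ZC3HAV1 they were 1.47, 1.44, 1.51 and 0.73 in the same order. PIK3CB differed by -0.60, -0.84, -1.22 and -1.43, SPTBN5 by -0.48, -0.86, -1.18 and -1.56, and TSHZ2 by -1.04, -0.98, -1.03 and -0.92.

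**Figure D5:**
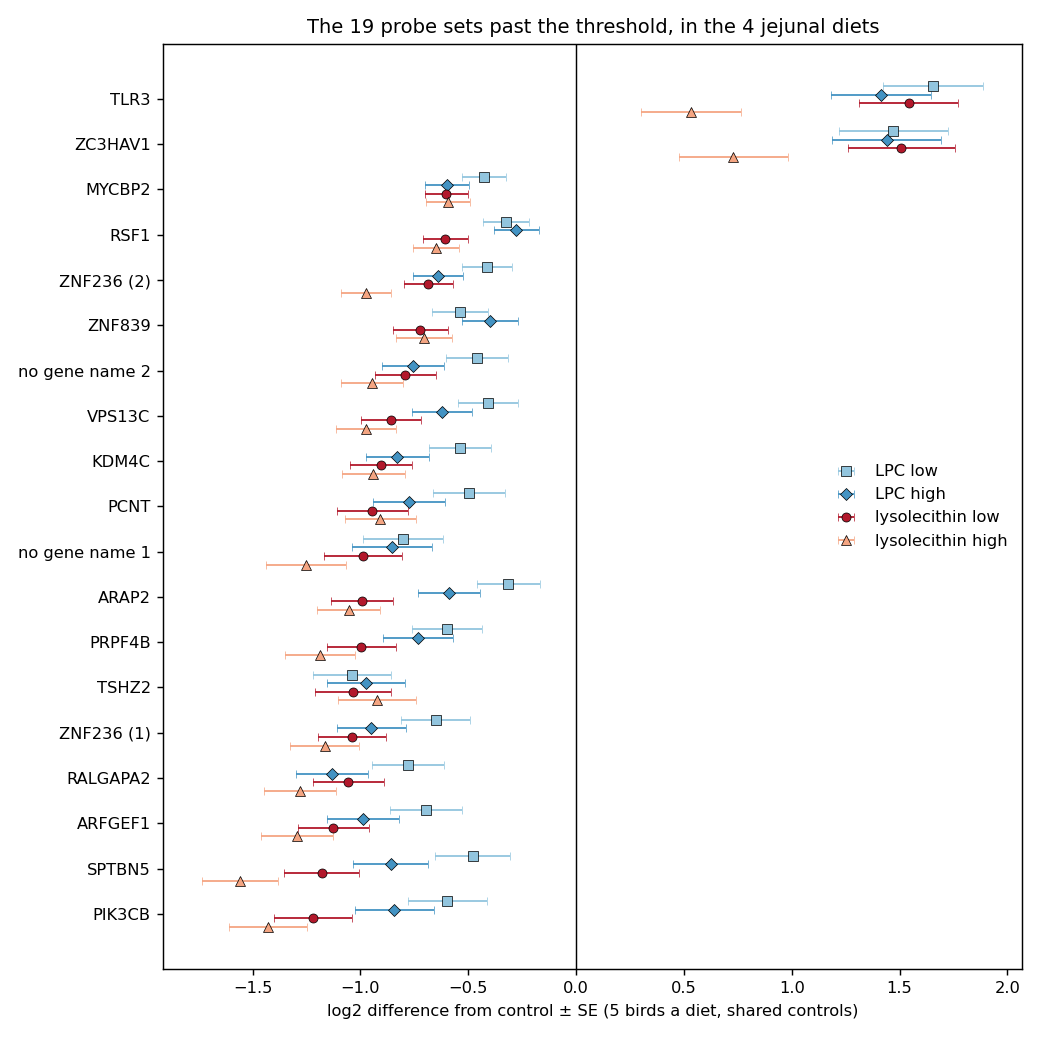
Difference from control ± SE (x axis, log2) of the 19 probe sets past the threshold with lysolecithin low (red circles), beside the same differences in the other 3 jejunal diets; 5 birds a diet, 1 shared control group. TLR3 and ZC3HAV1 lie right of 0 in each diet and nearest to it with lysolecithin high, at 0.53 and 0.73.

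Lysolecithin low and LPC low feed supply the same LPC, and differ in the other components of lysolecithin and in the carrier. No probe set passed (limma, 0 of 38382, 0%), also without the arrays against their label, which here include LPC low replicate 4. At an unadjusted p under 0.05 there were 1999 (5.21%), 2.99% higher and 2.22% lower. For TLR3 the difference between the diets was -0.11 (SE 0.23, adjusted p = 0.994), and for ZC3HAV1 it was 0.04 (SE 0.25, adjusted p = 0.998). Probe sets with the lowest p included HKDC1, a hexokinase-like gene (8.44 ± 0.15 with lysolecithin low and 7.72 ± 0.32 with LPC low; SD, n = 5 each), and the transcription factor TGIF1 (6.48 ± 0.35 with lysolecithin low and 5.24 ± 0.62 with LPC low). HKDC1 differed by 0.75 ± 0.15, TGIF1 by 1.29 ± 0.29, SLC13A1, a sulfate transporter, by -1.12 ± 0.28 and ARAP2 by -0.68 ± 0.15, each with an adjusted p of 0.775. The interferon effectors had a median of 0.04 in this comparison, with 1 of 39 higher at an unadjusted p. Of all 13009 genes with 1 symbol, 500 were higher at it.

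The 2 levels of lysolecithin differed at 1 of 38382 probe sets (0.00261%), and 5184 (13.5%) had an unadjusted p under 0.05, 6.46% higher and 7.04% lower. MARC1, a mitochondrial reductase that acts on oxidised amines, averaged 8.98 ± 0.24 with lysolecithin low and 10.20 ± 0.26 with lysolecithin high (SD, n = 5 each), a difference of -1.27 ± 0.19 (limma, adjusted p = 0.0400). Without lysolecithin high replicate 5 the count was 272, without its replicate 2 it was 20, and with the 5′ minus 3′ index as a covariate none passed. TLR3 averaged 8.68 ± 0.40 with the low and 7.77 ± 0.38 with the high level (1.01 ± 0.23; adjusted p = 0.223). VIM, the intermediate filament of stromal cells, averaged 5.59 ± 1.01 with the low and 7.79 ± 0.54 with the high level (-2.10 ± 0.39; adjusted p = 0.223). Read by 1 probe set each, 769 of all 13009 genes were higher and 1450 lower between the levels at an unadjusted p. Interferon effectors had a median of 0.48 between the levels, with 18 of 39 higher at an unadjusted p. Cytosolic ribosomal proteins had a median of -0.43 with 59 of 64 lower, and crypt proliferation genes one of -0.78 with 31 of 41 lower at an unadjusted p. Genes of other cell types were lower beside them at an unadjusted p, 22 of 38 of fibroblasts and collagens, 9 of 18 of smooth muscle, 10 of 21 of macrophages and granulocytes and 8 of 17 of endothelium, and their part in these differences was not tested.

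In the ileum of the same birds, lysolecithin low against control called 336 of 38382 probe sets (0.875%), and 6 of the 19 called in the jejunum were among them (31.6%). ZC3HAV1 differed by 1.71 in the ileum (adjusted p = 0.0107), TLR3 by 1.37 (adjusted p = 0.0515), PCNT by -1.35 (adjusted p = 0.0107), RALGAPA2 by -0.99 (adjusted p = 0.0128), ARAP2 by -1.02 (adjusted p = 0.0218) and RSF1 by -0.03 (adjusted p = 0.943). Of the 39 interferon effectors, 22 were higher at an adjusted p in the ileum, with a median of 1.17. RSAD2 differed by 4.27 there (adjusted p = 0.0119) and IFIT5 by 3.07 (adjusted p = 0.0107). Whether the effect differed between segments was tested by taking the jejunum minus the ileum within every bird, and no probe set passed (limma, 0 of 38382, 0%; 1937, or 5.05%, had an unadjusted p under 0.05, 2.55% higher and 2.49% lower). For TLR3 this test gave 0.18 (adjusted p = 0.984) and for RSAD2 -1.03 (adjusted p = 0.964). The interferon effectors had a median of -0.43 in it, 4 of 39 were positive, and at an unadjusted p 1 was higher and 12 were lower. Of all 13009 genes with 1 symbol, 6858 were positive, and at an unadjusted p 484 were higher and 322 lower. In this test both arrays of control replicate 2 carried ileal markers, with segment scores of -4.75 in jejunum and -5.56 in ileum. Without the birds that had an array against its label, no probe set passed either.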

How the data were processed

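The authors deposited 1 log2 signal for each probe set and array, made with RMA, per the submitters' processing notes, which also name limma. RMA corrects background and equalises the arrays, so a change shared by most transcripts is hidden. The genome build and versions are not given in the sources used here. Only RNA with an integrity number above 8.7 was hybridised and some tissues were extracted again, per the labels' protocols. Array medians were 4.57 to 4.70. Of 38535 probe sets, 153 control and reporter sets were left out. All of the other 38382 were tested, dim ones included, and 27168 of these had 1 symbol in the platform annotation (13009 genes), and a GRCg7b gene table was used for names only.

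The 25 jejunal arrays were fitted together in limma 3.58.1 (R 4.3.3) with diet and batch as terms and Benjamini-Hochberg adjustment over all probe sets. Of the 4 comparisons fitted, the last used each bird's jejunum minus ileum difference. The fit was tried on simulated data with independent noise for each probe set and no effect of batch, RNA or pen. That trial cannot show how the calls depend on those. Birds within a group were separate animals but shared a pen, if every pen had a single feed. The tests therefore measure the spread between birds and not between pens, and pen could not be a term. In the 41 gene lists a gene was read by its probe set with the highest jejunal mean, and 37 of 1136 matches went through a synonym. Genes were named if past the threshold, if among the 12 highest or lowest by moderated statistic, or if leading or defining a list, up to 6 by p. In the other comparisons up to 5 were named each way. The genes just short of the threshold were chosen after their values were seen. The members, lists, tests and rule were all chosen with earlier results of these data known. The alternatives tried are given with their effect in the closing section. Figures were drawn with matplotlib in Python.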

Additional observations from a re-analysis of the deposited data

Results flagged for a closer look

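The average signal of each of the gene lists, the segment score and the RNA index were examined in the 2 jejunal groups of 5 birds, 124 groups in all with those of the 19 probe sets past the threshold, and 12 held a bird far from the other 4. Chance alone flags about 1 in 20 groups. Most of these birds were controls. Control replicate 2, whose segment markers were ileal, was low in brush-border digestion (9.34, next bird 9.82), jejunal segment genes (6.58, next 9.44), lipid absorption (8.68, next 9.39) and phospholipid enzymes (7.11, next 7.35), and high in crypt stem cell genes (5.97, next 5.26) and translation factors (10.04, next 9.80). Control replicate 1 was high in interferons and their receptors (6.99, next 6.67) and low in respiratory chain genes (9.61, next 9.81). Control replicate 3 was high in red blood cell genes (6.38, next 5.81) and control replicate 4 in pancreas genes (4.37, next 4.30). With lysolecithin low, replicate 4 was high in smooth muscle genes (5.92, next 5.37) and replicate 3 in translation factors (9.93, next 9.68). The lipid absorption, phospholipid and translation factor medians with and without control replicate 2 were 0.24 and 0.09, 0.12 and 0.04, and -0.12 and -0.06.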

How the results depend on the processing

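The 19 called probe sets and the 10 next on the higher side kept their sign under each alternative, and other named genes were not followed singly. The 19 calls of lysolecithin low against control became 0 without batch in the model, 0 with a random batch effect and 0 with the 5′ minus 3′ index as a covariate (3237, 3141 and 2707 at an unadjusted p). They became 6 in a fit of only the 10 arrays, 240 with array weights, 33 with the segment score as a covariate (18 of the 19 among them), and 35 when jejunum and ileum were fitted jointly with a replicate block for the bird (13 of the 19). Leaving out 1 array in turn gave 5 to 41: 5 without control replicate 5, 8 without control replicate 3, and 7, 10, 12 and 41 without lysolecithin low replicates 4, 3, 1 and 5. Without the arrays against their label there were 24 (16 of the 19), and without control replicate 2 alone 23 (17 of the 19). The other settings gave 13 to 22. The causes were not tested. Between the lysolecithin levels the single call became 0 with no batch term, 0 with a random batch and 0 with the index, 2 with the segment score, and 0 to 272 with 1 array left out. The jejunum minus ileum test gave 1 with array weights, 0 with the replicate block and 0 to 1 with 1 array left out, 1 without lysolecithin low replicate 1. Against LPC low all settings gave 0. Interferon effector medians stayed within 0.64 to 0.89 with 22 to 28 members higher at an unadjusted p; ribosomal medians within -0.45 to -0.28 with 7 to 55 lower. Of the 19 called probe sets 4 had a mean signal below the array median, and the 5 birds a group limit the precision.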
